A study of Mus musculus with 12 samples.

Results

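Regulatory T cells (Tregs) with low surface CD62L were compared between mice whose Tregs can lose both copies of Ezh2 (KO) and mice whose Tregs can lose 1 copy (HET). The members are the 3 KO and the 3 HET CD62Llo libraries as the labels name them, 6 of the 12 libraries of the series, and each gene's value is the sum of the entries that carry its symbol. All mice were C57BL/6 females of genotype Foxp3YFP-Cre/Foxp3WT. HET mice were Ezh2fl/+ and KO mice were Ezh2fl/fl, so the HET controls carry Cre and a floxed allele too. The cells came from spleen and lymph node, without a stated age or treatment, and the poly(A)-selected RNA was read as single 50 bp ends. The other 6 libraries are the CD62Lhi Tregs of the same genotypes. Cre is driven from 1 of the 2 Foxp3 alleles, and Foxp3 lies on the X chromosome, so in these females a given Treg uses either the Cre-bearing or the wild-type allele. The labels do not say whether cells were sorted on YFP. Nor do they tell whether separate animals gave the 3 libraries of each genotype, so p-values measure a spread between libraries, which may be technical. That spread was estimated over all 11 libraries fitted, those of CD62Lhi Tregs included.

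Ezh2 is the catalytic subunit of Polycomb repressive complex 2 (PRC2), which methylates histone H3 at lysine 27 and keeps genes silent. Tregs are CD4 T cells that express Foxp3 and restrain other immune cells. CD62L is a homing receptor for lymph nodes that resting T cells carry and that T cells shed and downregulate after activation, so low CD62L is commonly used to sort activated, or effector, Tregs.

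FPKM values (fragments scaled to transcript length and to library size, a level per length) were tested for 11431 genes. Library depth in reads is not given in the sources used here. For genes at 5 to 20 FPKM the authors' own intervals correspond to a median relative SD of 3.66% to 5.94% per CD62Llo library. In these libraries 12.1% to 26.7% of the entries above 1 FPKM lay above their own upper bound. The intervals, and this SD, are therefore not a dependable measure of precision. The log2 profiles of the CD62Llo libraries correlated across genes at r of 0.953 to 0.957 within HET and 0.949 to 0.951 within KO. Between the genotypes r was 0.932 to 0.957, and genes are not independent replicates. KO CD62Llo replicate 3 correlated with the CD62Lhi libraries kept at r of 0.953 to 0.963. With the other KO CD62Llo libraries its r was lower, at 0.949 and 0.950. The other CD62Llo libraries correlated with the CD62Lhi libraries at 0.925 to 0.947. The cause of this was not tested. HET CD62Lhi replicate 3, with 583 symbols at 1 FPKM or more against 10597 to 11024 in the other 11 libraries, was left out. Values below are listed in the order of replicates 1, 2 and 3, and changes are on the log2 scale of FPKM + 1, KO minus HET. Where a gene is said not to be called without some libraries, each was left out on its own. In bulk RNA, fewer cells of a type and less RNA per cell cannot be told apart.

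The targeted gene was lower in KO without passing the test. Ezh2 read 18.2, 17.8 and 20.5 FPKM in HET and 12.5, 16.8 and 14.4 FPKM in KO (log2 change -0.36, SE 0.11, adjusted p = 0.113, limma). Every KO library was below every HET library, as in 13.7% of all genes tested, and the difference was small beside a complete loss. The sources used here do not say which exons the floxed allele removes, and the gene-level FPKM counts all exons, so this value does not measure the deleted part. Ezh1, the other PRC2 methyltransferase, read 24.7, 25.4 and 23.0 FPKM in HET and 22.4, 23.8 and 20.3 FPKM in KO (adjusted p = 0.292), and the core subunits Eed and Suz12 were within the spread (adjusted p = 0.713 and 0.921).

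Of 8 genes that define Tregs and CD4 T cells, none was under 1 FPKM in any CD62Llo library. Foxp3, the lineage factor of Tregs, read 84.5, 84.0 and 95.6 FPKM in HET and 80.0, 75.9 and 96.8 FPKM in KO (log2 change -0.07, SE 0.09, adjusted p = 0.733). Il2ra (CD25), the alpha chain of the IL-2 receptor, read 108, 128 and 135 FPKM in HET and 110.4, 122 and 138 FPKM in KO (log2 change 0.00, SE 0.11, adjusted p = 0.989). Both sets of values overlapped between the genotypes, as the plot of resting and Treg genes shows. The other members were Ctla4, Ikzf2, Tnfrsf18 and 3 T cell genes. Over the 8 genes the sum was 1859.6 to 2109 FPKM in HET and 1630.0 to 1810.3 FPKM in KO, without overlap. In 7 of 8 the change was below 0, in 5 of 8 every KO library was below every HET library (13.7% of all genes), and 1, Tnfrsf18, was called lower.

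Of the 11431 genes, 526 (4.6%) were called at a limma adjusted p under 0.05: 371 (3.25%) were lower and 155 (1.36%) higher in KO. The falls were larger, with a median log2 change of -0.52 and 36 genes at 1 or more in size, against 0.44 and 7 genes among the rises, while the median of all genes tested was -0.03. All 526 called genes had groups that did not overlap, as did 20.2% of all genes tested (13.7% with KO below and 6.55% with KO above). Where groups of a called gene are said below not to overlap, this describes its values and adds no support to its call. With replicate number as a block, 242 genes were lower and 101 higher, of which 202 and 78 were among the 371 and 155. After quantile normalization 310 were lower and 237 higher, and after median centring 281 and 226, so the share of calls that were higher moved from 29.5% to 43.3% and 44.6%. The 6 CD62Llo libraries fitted alone gave 84 lower and 25 higher, and a fit that kept HET CD62Lhi replicate 3 gave 3 and 0, with 29 higher at an unadjusted p under 0.05. Leaving out a library changed the counts most for HET CD62Llo replicate 2 (138 lower, 44 higher) and replicate 3 (233 and 70) and for KO CD62Llo replicate 1 (131 and 53) and replicate 3 (199 and 85). Of the 526 genes, 144 kept their call in all 11 fits that left out 1 library.

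**Figure D1:**
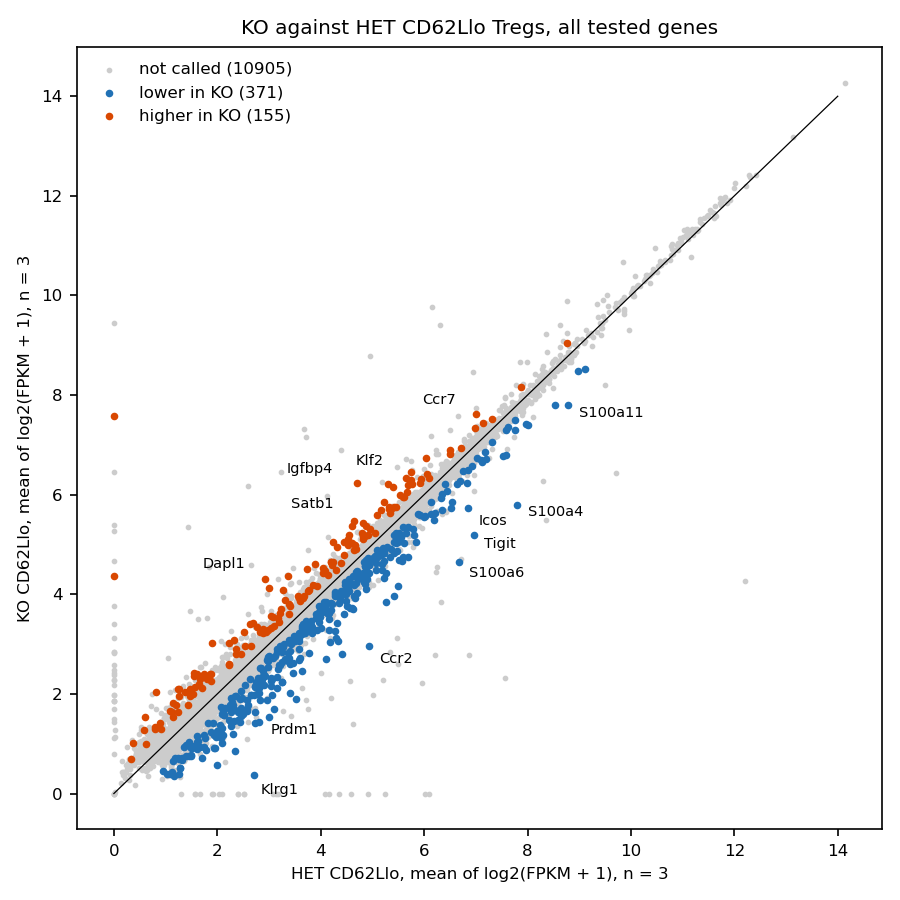
Mean log2(FPKM + 1) of the 3 HET (x axis) and 3 KO (y axis) CD62Llo libraries for each of the 11431 genes tested; the line marks equal levels, blue points are the 371 genes called lower and orange points the 155 called higher in KO. S100a4, S100a6, Ccr2, Tigit and Klrg1 lie farthest below the line among the labelled genes.

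The 15 largest falls named by rule included 2 S100 genes, the inhibitory receptors Klrg1, Tigit and Lilrb4, and 5 chemokine receptors. S100a4, a calcium-binding protein tied to cell motility, read 205, 212 and 251 FPKM in HET and 44.1, 65.2 and 55.3 FPKM in KO, or 4.06-fold lower (log2 change -2.01, SE 0.21, adjusted p = 0.00237). Its neighbour S100a6 read 91.9, 106 and 106 FPKM in HET and 16.6, 29.8 and 28.0 FPKM in KO, or 4.08-fold lower (log2 change -2.03, SE 0.25, adjusted p = 0.00410). In both genes the highest KO library lay far below the lowest HET library. S100a4 lies at chr3:90603770-90606045 and S100a6 at chr3:90612894-90614414 (mm10), and with S100a1 (log2 change -0.58, adjusted p = 0.0371) they formed a run of 3 lowered genes among the 5 tested in that stretch. With the replicate block the adjusted p of S100a1 was 0.0566 (0.0206 to 1 over all alternatives). S100a1 was not called without HET CD62Lhi replicates 1 or 2, HET CD62Llo replicates 2 or 3, KO CD62Lhi replicates 1 or 2 or KO CD62Llo replicates 1, 2 or 3 (adjusted p 0.0537 to 0.129).

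The 300-base promoter windows of S100a4 and S100a6, from 250 bases before to 50 after the start, are shown because these neighbours fell together, and those of Igfbp4 and Dapl1 because these 2 genes rose most among the genes named by rule, which leaves out small RNAs and weakly expressed genes. They are from RefSeq, build GRCm38.p6, read 5′ to 3′ on the gene's strand, with capitals marking the RUNX motif TGTGGT on either strand, since RUNX factors partner Foxp3.
S100a4 promoter, chr3:90603520-90603819, plus strand: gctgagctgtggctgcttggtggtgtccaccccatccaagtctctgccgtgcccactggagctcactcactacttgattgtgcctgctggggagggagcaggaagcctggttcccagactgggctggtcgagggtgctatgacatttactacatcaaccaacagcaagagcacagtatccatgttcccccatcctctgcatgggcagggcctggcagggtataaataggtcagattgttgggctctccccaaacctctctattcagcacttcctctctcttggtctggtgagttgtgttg
S100a6 promoter, chr3:90612644-90612943, plus strand: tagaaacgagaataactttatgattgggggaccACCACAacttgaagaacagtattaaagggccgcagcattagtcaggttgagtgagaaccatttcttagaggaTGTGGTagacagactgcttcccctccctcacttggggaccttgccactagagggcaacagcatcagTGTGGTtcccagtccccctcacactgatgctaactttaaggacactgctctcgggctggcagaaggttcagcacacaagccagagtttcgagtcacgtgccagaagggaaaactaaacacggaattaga
Igfbp4 promoter, chr11:99040994-99041293, plus strand: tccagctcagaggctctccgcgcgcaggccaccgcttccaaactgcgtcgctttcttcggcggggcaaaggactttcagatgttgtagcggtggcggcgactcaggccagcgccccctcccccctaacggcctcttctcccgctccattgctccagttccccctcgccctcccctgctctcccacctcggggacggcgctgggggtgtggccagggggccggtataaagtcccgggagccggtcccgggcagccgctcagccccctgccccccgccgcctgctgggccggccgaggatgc
Dapl1 promoter, chr2:59484403-59484702, plus strand: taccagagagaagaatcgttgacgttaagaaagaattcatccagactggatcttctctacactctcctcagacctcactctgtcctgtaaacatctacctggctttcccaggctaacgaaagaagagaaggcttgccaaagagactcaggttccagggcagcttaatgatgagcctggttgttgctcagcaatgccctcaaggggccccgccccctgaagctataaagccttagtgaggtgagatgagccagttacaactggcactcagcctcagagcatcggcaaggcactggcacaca
The S100a6 window held 3 matches to the motif and the other windows held 0; of all 32851 promoter windows of this length, 16.8% held at least 1. The Igfbp4 window held 27 CpG dinucleotides, against 2, 6 and 5 in those of S100a4, S100a6 and Dapl1 and a median of 7 over all windows. A match is a description of these letters and not a measured site.

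The S100, annexin and galectin list also holds Vim, Tagln2, Ahnak and Crip1. Of its 18 tested genes, 0 rose and 5 fell (27.8%, against 3.25% of all genes), with a median log2 change of -0.28. Besides S100a4 and S100a6 these were S100a11, S100a10 and Lgals1. S100a11, a calcium-binding protein, read 442, 489 and 397 FPKM in HET and 224, 252 and 195 FPKM in KO (log2 change -0.98, SE 0.10, adjusted p = 0.00172). S100a10, the annexin A2 partner, read 542, 549.6 and 564 FPKM in HET and 335, 371 and 399 FPKM in KO (log2 change -0.59, SE 0.07, adjusted p = 0.00328). These KO values too were all below the HET values, at a smaller ratio. Lgals1, which encodes galectin-1, a mediator of Treg suppression, was at 183 ± 13.3 FPKM in HET and 110.0 ± 24.8 FPKM in KO as mean ± SD of n = 3 each (log2 change -0.75, adjusted p = 0.0187). With the replicate block its adjusted p was 0.0800 (0.0110 to 1 over all alternatives). Lgals1 was not called without HET CD62Llo replicates 2 or 3 (adjusted p 0.0547 to 0.0555).

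Of the inhibitory receptors and their ligands tested, 5 of 15 fell and 0 rose (median -0.59), against 3.25% of all genes that fell. Klrg1, a lectin receptor of terminally differentiated effector Tregs, read 4.89, 3.01 and 10.9 FPKM in HET and 0.0663, 0.120 and 0.826 FPKM in KO (log2 change -2.34, SE 0.35, adjusted p = 0.00854) and had the largest log2 fall of the genes named by rule. Its 3 KO values were all under 1 FPKM. Tigit, a co-inhibitory receptor of highly suppressive Tregs, read 93.6, 174 and 115 FPKM in HET and 25.4, 37.9 and 45.7 FPKM in KO, or 3.52-fold lower (log2 change -1.78, SE 0.31, adjusted p = 0.0151). Its lowest HET value stood above its highest KO value. Lilrb4, an inhibitory leukocyte receptor, read 8.92, 12.9 and 9.92 FPKM in HET and 2.09, 3.22 and 2.98 FPKM in KO (log2 change -1.62, SE 0.15, adjusted p = 0.00172). Its near-identical neighbour Gp49a read 5.52, 8.42 and 7.33 FPKM in HET and 1.19, 2.28 and 2.37 FPKM in KO (log2 change -1.47, SE 0.18, adjusted p = 0.00386), and reads of the pair cannot be assigned with certainty. Havcr2, which encodes Tim-3, changed by -0.75 (adjusted p = 0.0204), and Pdcd1lg2, the PD-1 ligand PD-L2, by -0.62 (adjusted p = 0.00335). The blocked adjusted p of Havcr2 was 0.0542 (0.00362 to 1 over all alternatives). Tigit was not called without HET CD62Llo replicate 2 or KO CD62Llo replicate 1 (adjusted p 0.0555 to 0.0595), and Havcr2 was not called without HET CD62Llo replicates 2 or 3 or KO CD62Llo replicates 1 or 3 (adjusted p 0.0513 to 0.0840).

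Lag3, Pdcd1 and Ctla4 were lower in the KO libraries but not called. Pdcd1, which encodes PD-1, read 71.9, 125 and 68.7 FPKM in HET and 49.2, 56.2 and 43.9 FPKM in KO (log2 change -0.77, SE 0.22, adjusted p = 0.0831). Ctla4, which strips costimulatory ligands from antigen-presenting cells, read 168, 222 and 262 FPKM in HET and 128, 154 and 145 FPKM in KO (log2 change -0.59, SE 0.15, adjusted p = 0.0650). Lag3, a receptor for MHC class II, read 92.0, 136 and 151 FPKM in HET and 51.2, 74.1 and 76.6 FPKM in KO (log2 change -0.89, SE 0.24, adjusted p = 0.0764). In each of the 3 genes every KO library was below every HET library, as in 13.7% of all genes tested. Under the block, the adjusted p of Ctla4 was 0.0443 (0.0151 to 1 over all alternatives) and that of Lag3 0.00822 (0.00822 to 1 over all alternatives), while that of Pdcd1 was 0.0672 (0.0423 to 1 over all alternatives).

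**Figure D2:**
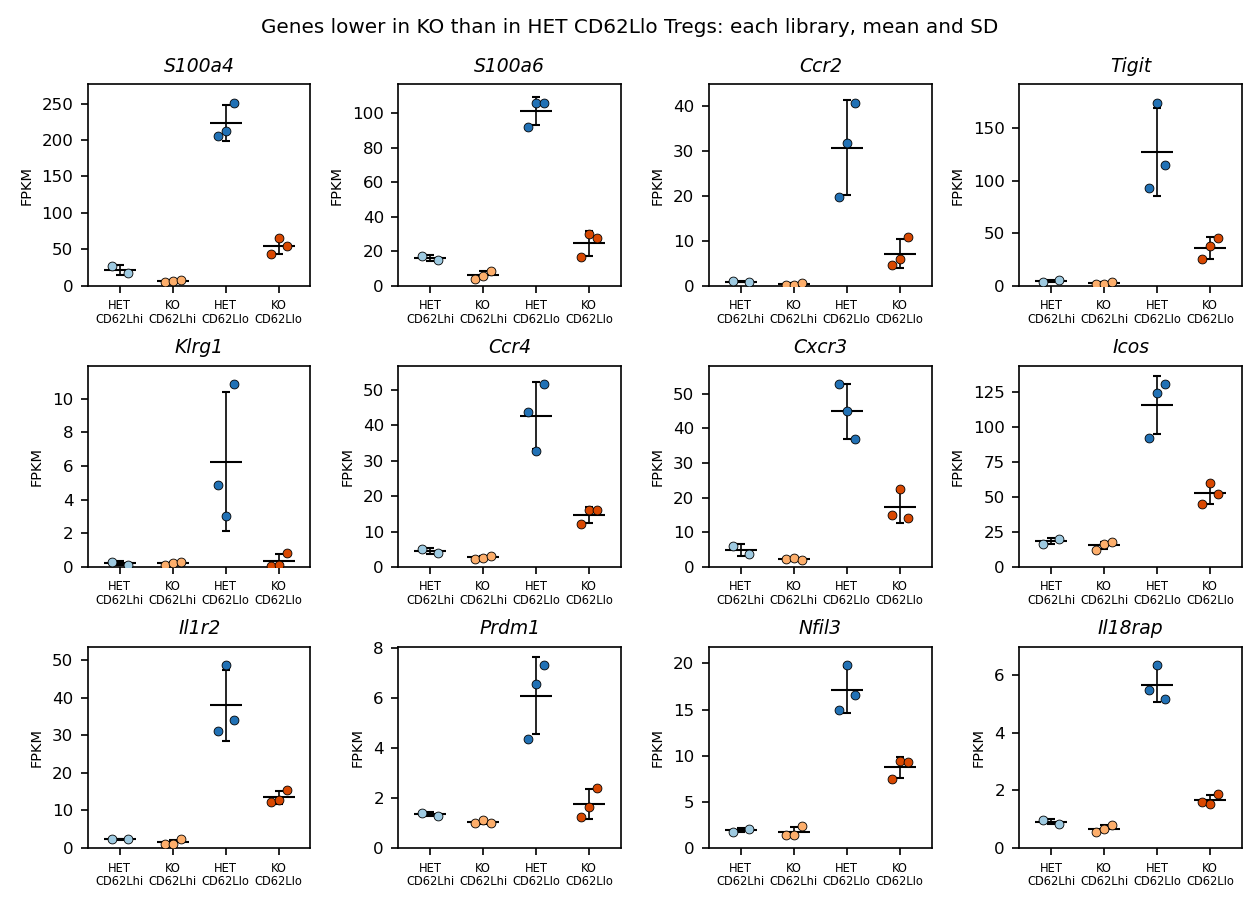
FPKM (y axis, linear, from 0) of 12 genes lower in KO than in HET CD62Llo Tregs; each point is 1 library, horizontal bars are means and error bars SD (n = 3; HET CD62Lhi n = 2). In each panel the 3 KO CD62Llo points lie below the 3 HET CD62Llo points.

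Chemokine receptors, which steer T cells into tissues, were the list with the largest share of falls. Of 15 tested members, 9 were lower (60%, against 3.25% of all genes) and 1, Ccr7, was higher (median -0.82). Ccr2, a receptor for inflammatory chemokines, read 19.7, 31.6 and 40.6 FPKM in HET and 4.68, 6.00 and 10.9 FPKM in KO, or 4.27-fold lower (log2 change -1.97, SE 0.30, adjusted p = 0.00861). Ccr4, a receptor for skin and lung homing, read 43.8, 32.7 and 51.7 FPKM in HET and 12.1, 16.0 and 16.0 FPKM in KO (log2 change -1.46, SE 0.18, adjusted p = 0.00373). Cxcr3, the T-bet-dependent receptor for sites of type 1 inflammation, read 52.8, 44.9 and 36.9 FPKM in HET and 15.1, 22.5 and 14.1 FPKM in KO (log2 change -1.35, SE 0.21, adjusted p = 0.00981). The KO values of these genes stayed below the lowest HET value. Cxcr6, a receptor of tissue-resident T cells, fell as well (log2 change -1.39, adjusted p = 0.00454). Smaller falls were called for Ccr8 (-0.92), Ccr6 (-0.89), Ccrl2 (-0.82) and Ccr1 (-0.66), on the log2 scale. Ccr8 was not called without HET CD62Llo replicates 2 or 3 or KO CD62Llo replicates 1 or 3 (adjusted p 0.0604 to 0.0840). Ccr6 was not called without HET CD62Llo replicates 2 or 3 or KO CD62Llo replicates 1, 2 or 3 (adjusted p 0.0561 to 0.0807). Ccrl2 was not called without HET CD62Llo replicates 2 or 3, KO CD62Lhi replicate 1 or KO CD62Llo replicates 1 or 2 (adjusted p 0.0513 to 0.109). Ccr1 was not called without HET CD62Lhi replicates 1 or 2, HET CD62Llo replicates 2 or 3, KO CD62Lhi replicates 1, 2 or 3 or KO CD62Llo replicates 1, 2 or 3 (adjusted p 0.0620 to 0.147). With the replicate block the adjusted p of Ccr8 was 0.0802 (0.00239 to 1 over all alternatives) and that of Ccr1 0.0784 (0.0187 to 1 over all alternatives). Cxcr5, the receptor of follicular cells, changed by -0.25 (adjusted p = 0.559). Without KO CD62Llo replicate 3, 6 chemokine receptors were called lower.

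Of the transcription factors of activated Tregs, 10 of 24 tested fell (41.7%, against 3.25% of all genes) and 0 rose (median -0.50). Prdm1, which encodes Blimp-1, a factor of effector Tregs, read 4.35, 6.57 and 7.32 FPKM in HET and 1.23, 1.65 and 2.39 FPKM in KO, or 3.46-fold lower (log2 change -1.36, SE 0.18, adjusted p = 0.00512). Nfil3, a basic leucine zipper factor, read 14.9, 19.8 and 16.5 FPKM in HET and 7.44, 9.40 and 9.31 FPKM in KO (log2 change -0.89, SE 0.15, adjusted p = 0.0132). Neither gene overlapped between the genotypes. Rora, which encodes a nuclear receptor, changed by -0.87 (adjusted p = 0.00410), Bhlhe40 by -0.84, Ahr by -0.67, Id2 by -0.62, Batf by -0.58, Runx2 by -0.56 and Runx3 by -0.49. The blocked adjusted p of Id2 was 0.0814 (0.0130 to 1 over all alternatives) and that of Runx3 0.0909 (0.0275 to 1 over all alternatives). Nfil3 was not called without HET CD62Llo replicate 2 or KO CD62Llo replicate 1 (adjusted p 0.0549 to 0.0565). Ahr was not called without HET CD62Llo replicate 2 or KO CD62Llo replicate 1 (adjusted p 0.0513 to 0.0549). Bhlhe40 was not called without HET CD62Llo replicate 2 or KO CD62Llo replicates 1 or 3 (adjusted p 0.0583 to 0.0933). Batf was not called without HET CD62Llo replicate 2 or KO CD62Llo replicates 1 or 3 (adjusted p 0.0585 to 0.0728). Runx3 was not called without HET CD62Llo replicates 1, 2 or 3, KO CD62Lhi replicates 1, 2 or 3 or KO CD62Llo replicates 1 or 3 (adjusted p 0.0634 to 0.156). Id2 was not called without HET CD62Lhi replicates 1 or 2, HET CD62Llo replicates 1, 2 or 3, KO CD62Lhi replicates 1, 2 or 3 or KO CD62Llo replicates 1 or 3 (adjusted p 0.0555 to 0.142). Without KO CD62Llo replicate 3, 6 members of the list were called lower. Maf read 78.0, 89.8 and 88.5 FPKM in HET and 42.7, 57.3 and 50.8 FPKM in KO (log2 change -0.76, adjusted p = 0.0652), with an adjusted p of 0.0122 (0.00844 to 1 over all alternatives) with the replicate block. Irf4 (log2 change -0.39, adjusted p = 0.294), Tbx21 (log2 change -0.51, adjusted p = 0.174) and Bcl6 (log2 change -0.35, adjusted p = 0.191) were not called.

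Among the helper lineage genes, 0 of 21 tested were higher and 8 lower (38.1%, against 3.25% of all genes), with a median of -0.57. They included Cxcr3, Il4, Ccr4, Ccr8, Rora, Ccr6 and Icos, which belong to type 1, type 2, Th17 and follicular programmes. Cxcr3, Ccr4, Ccr8 and Ccr6 were already counted among the chemokine receptors and Rora among the transcription factors. Icos, the costimulator of effector Tregs, read 92.5, 124 and 131 FPKM in HET and 45.2, 60.2 and 52.4 FPKM in KO, or 2.20-fold lower (log2 change -1.12, SE 0.17, adjusted p = 0.00816). Its groups were well apart. Il4, the type 2 cytokine, read 4.03, 5.54 and 2.95 FPKM in HET and 0.606, 1.07 and 0.783 FPKM in KO (log2 change -1.48, SE 0.18, adjusted p = 0.00386). The type 1 cytokine Ifng read 4.13, 3.59 and 3.65 FPKM in HET and 1.69, 3.11 and 2.03 FPKM in KO (log2 change -0.57, SE 0.16, adjusted p = 0.0784) and did not pass the test. Its KO values were all below the HET values, as in 13.7% of all genes tested.

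Of the 27 tested members of a list of cytokine receptors that also holds the cytokine gene Csf1, 8 were lower and 3 were higher (median -0.10). The shares were 29.6% and 11.1%, against 3.25% and 1.36% of all genes. Csf1 itself was 1 of the 8 (log2 change -1.05, adjusted p = 0.00352). Without KO CD62Llo replicate 3 the counts were 6 and 1, and with the replicate block 9 and 1. Il1r2, the decoy receptor for IL-1, read 31.2, 48.7 and 34.0 FPKM in HET and 12.1, 12.7 and 15.4 FPKM in KO (log2 change -1.41, SE 0.22, adjusted p = 0.00879). Il18rap, the signalling chain of the IL-18 receptor, read 5.49, 6.36 and 5.17 FPKM in HET and 1.59, 1.53 and 1.87 FPKM in KO (log2 change -1.32, SE 0.10, adjusted p = 0.000644), and its partner Il18r1 read 50.0, 46.7 and 56.3 FPKM in HET and 24.3, 23.8 and 29.5 FPKM in KO (log2 change -0.95, SE 0.09, adjusted p = 0.00172). KO values lay below all HET values in each of these genes. Il1r1, the signalling receptor for IL-1, changed by -1.03 (adjusted p = 0.0323). Its adjusted p with the replicate block was 0.0679 (0.0139 to 0.335 over all alternatives). Il1r1 was not called without HET CD62Lhi replicates 1 or 2, HET CD62Llo replicate 2, KO CD62Lhi replicates 1 or 2 or KO CD62Llo replicates 1, 2 or 3 (adjusted p 0.0533 to 0.0986). The raised members were Ifngr2 (0.38), Il4ra (0.32) and Il17ra (0.29), subunits of the interferon-gamma, IL-4 and IL-17 receptors, and with the replicate block the adjusted p of Ifngr2 was 0.0526 (0.00830 to 1 over all alternatives) and that of Il17ra 0.0620 (0.0108 to 1 over all alternatives). Ifngr2 was not called without HET CD62Llo replicates 2 or 3 or KO CD62Llo replicates 1 or 3 (adjusted p 0.0562 to 0.0718). Il17ra was not called without HET CD62Llo replicates 2 or 3 or KO CD62Llo replicates 1 or 3 (adjusted p 0.0749 to 0.0970). Il4ra was not called without HET CD62Llo replicate 2 (adjusted p = 0.0539). Il1rl1, the IL-33 receptor ST2, read 3.35, 1.64 and 3.47 FPKM in HET and 0.950, 0.465 and 1.60 FPKM in KO (log2 change -0.93, SE 0.30, adjusted p = 0.125), with a blocked adjusted p of 0.0236 (0.0236 to 1 over all alternatives).

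Of the suppressive mediators, 4 of 19 tested fell (21.1%, against 3.25% of all genes) and 0 rose (median -0.59). The 4 were Il1r2, Fgl2, Lgals1 and Pdcd1lg2, and the count was 7 with the replicate block. Il1r2, Lgals1 and Pdcd1lg2 also belong to lists given above. Fgl2, a secreted suppressor protein, was at 9.62 ± 1.53 FPKM in HET and 5.09 ± 0.961 FPKM in KO as mean ± SD of n = 3 each (log2 change -0.80, SE 0.16, adjusted p = 0.0212). Fgl2 was not called without HET CD62Llo replicates 2 or 3 or KO CD62Llo replicates 1 or 2 (adjusted p 0.0510 to 0.0892). Il10, the anti-inflammatory cytokine, read 5.15, 20.8 and 16.1 FPKM in HET and 1.05, 1.82 and 7.67 FPKM in KO (log2 change -1.84, SE 0.57, adjusted p = 0.115). Its KO replicate 3 lay above HET replicate 1, so the groups overlapped. Gzmb, a granzyme, read 23.2, 31.1 and 42.3 FPKM in HET and 15.3, 15.3 and 21.6 FPKM in KO (log2 change -0.83, adjusted p = 0.0574). Ebi3, a subunit of IL-35, read 21.2, 14.3 and 18.2 FPKM in HET and 11.9, 10.1 and 9.46 FPKM in KO (log2 change -0.71, adjusted p = 0.0765). Neither was called, while with the replicate block the adjusted p was 0.0213 (0.0213 to 1 over all alternatives) for Gzmb and 0.0338 (0.0310 to 1 over all alternatives) for Ebi3. The ectoenzyme Nt5e (CD73) changed by -0.34 (adjusted p = 0.479), within the spread.

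Among the TNF receptor family, whose members costimulate Tregs, 4 of 14 tested fell (28.6%, against 3.25% of all genes) and 0 rose. Tnfrsf1b, which encodes TNFR2, read 73.2, 104 and 97.2 FPKM in HET and 49.2, 55.0 and 51.5 FPKM in KO (log2 change -0.79, SE 0.11, adjusted p = 0.00705). Tnfrsf8 (CD30) changed by -0.72 (adjusted p = 0.00410), Tnfrsf4 (OX40) by -0.46 (adjusted p = 0.0172) and Tnfrsf18 (GITR) by -0.26 (adjusted p = 0.0416). They lie in 2 neighbouring pairs on chromosome 4. Without KO CD62Llo replicate 3, 2 members of the family were called lower. Tnfrsf4 was not called without HET CD62Llo replicates 2 or 3 or KO CD62Llo replicates 1 or 3 (adjusted p 0.0501 to 0.0732). Tnfrsf18 was not called without HET CD62Lhi replicates 1 or 2, HET CD62Llo replicates 2 or 3, KO CD62Lhi replicates 1, 2 or 3 or KO CD62Llo replicates 1, 2 or 3 (adjusted p 0.0610 to 0.146). Under the block, the adjusted p of Tnfrsf18 was 0.106 (0.0295 to 1 over all alternatives).

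Of 29 tested genes in a list of genes tied to Tregs, 7 were lower and 1 higher (median -0.26). The shares were 24.1% and 3.45%, against 3.25% and 1.36% of all genes. The lowered genes were Klrg1, Lgals1, Arl5a, Capg, Nrp1, Tnfrsf4 and Tnfrsf18, and Pde3b, a phosphodiesterase that Foxp3 represses, rose (log2 change 0.86, adjusted p = 0.0405). Pde3b was not called without HET CD62Lhi replicates 1 or 2, HET CD62Llo replicates 2 or 3, KO CD62Lhi replicates 1, 2 or 3 or KO CD62Llo replicates 1 or 2 (adjusted p 0.0510 to 0.132). Arl5a was not called without HET CD62Lhi replicates 1 or 2, HET CD62Llo replicates 2 or 3, KO CD62Lhi replicates 1, 2 or 3 or KO CD62Llo replicates 1 or 2 (adjusted p 0.0654 to 0.155). Capg was not called without HET CD62Lhi replicates 1 or 2, HET CD62Llo replicates 1, 2 or 3, KO CD62Lhi replicates 1 or 3 or KO CD62Llo replicates 1 or 2 (adjusted p 0.0502 to 0.144). Nrp1 was not called without HET CD62Llo replicates 2 or 3 or KO CD62Llo replicates 1 or 3 (adjusted p 0.0501 to 0.0678). With the replicate block the adjusted p of Pde3b was 0.0892 (0.0233 to 1 over all alternatives) and that of Capg 0.0554 (0.0246 to 1 over all alternatives). Ikzf2, which encodes Helios, read 50.4, 62.0 and 66.4 FPKM in HET and 46.9, 43.3 and 48.0 FPKM in KO (log2 change -0.36, SE 0.10, adjusted p = 0.0784) and did not pass. Cd44, an adhesion receptor of activated T cells, read 35.5, 32.6 and 31.4 FPKM in HET and 24.8, 29.4 and 19.5 FPKM in KO (log2 change -0.43, SE 0.12, adjusted p = 0.0794). After quantile normalization 4 of the list were called lower.

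Among the other lowered genes named by rule, Myo1f, an unconventional myosin, read 20.5, 20.6 and 19.4 FPKM in HET and 4.51, 7.98 and 5.87 FPKM in KO (log2 change -1.60, SE 0.18, adjusted p = 0.00320). Adam8, a cell surface protease, read 6.62, 6.55 and 9.68 FPKM in HET and 2.25, 2.09 and 2.34 FPKM in KO (log2 change -1.40, SE 0.13, adjusted p = 0.00172). In both, all KO values lay below all HET values.

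Among the genes named by rule, the largest rises were those of Igfbp4 and Dapl1, genes of resting T cells. Larger called rises were those of the small RNAs Mir1905 and Mir215, which the rule leaves out. The call of Mir215 was lost in 9 of the 11 fits that left out 1 library (limma, adjusted p 0.0616 to 0.146). Igfbp4, an insulin-like growth factor binding protein of naive T cells, read 17.5, 26.4 and 34.5 FPKM in HET and 67.2, 49.7 and 120.1 FPKM in KO, or 3.02-fold higher (log2 change 1.51, SE 0.31, adjusted p = 0.0271). Dapl1, a gene of naive T cells, read 6.34, 6.16 and 7.38 FPKM in HET and 19.0, 13.3 and 26.5 FPKM in KO, or 2.95-fold higher (log2 change 1.38, SE 0.21, adjusted p = 0.00861). Ly6c2, a surface antigen, read 7.38, 5.68 and 8.25 FPKM in HET and 17.2, 12.4 and 20.7 FPKM in KO (log2 change 1.11, SE 0.17, adjusted p = 0.00937). In each, KO replicate 3 was the highest CD62Llo library, and KO replicate 2 the lowest of the KO libraries. Ly6c1, near-identical to Ly6c2, changed by 0.92 (adjusted p = 0.0304), and reads of the pair cannot be assigned with certainty. With the replicate block its adjusted p was 0.103 (0.00250 to 1 over all alternatives). The authors also gave FPKM pooled per group, where Ly6c2 stood at 2.14 FPKM in HET and 2.96 FPKM in KO CD62Llo. These pooled values lie below every library value of the same group, so the size of the Ly6c2 rise is uncertain. The cause of the gap was not tested. Igfbp4 was not called without HET CD62Llo replicates 1 or 2 or KO CD62Llo replicates 1 or 3 (adjusted p 0.0537 to 0.0840). Ly6c1 was not called without HET CD62Llo replicates 1, 2 or 3, KO CD62Lhi replicate 2 or KO CD62Llo replicates 1 or 3 (adjusted p 0.0529 to 0.116).

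Of the resting surface and marker genes tested, 12 of 25 rose and 0 fell (median 0.53, against -0.03 over all genes and 1.36% of all genes called higher). S1pr1, the receptor by which T cells leave lymphoid tissue, read 67.4, 60.3 and 67.7 FPKM in HET and 103, 93.1 and 125 FPKM in KO (log2 change 0.70, SE 0.10, adjusted p = 0.00784). Ccr7, the chemokine receptor for lymph node entry, read 143, 125 and 117 FPKM in HET and 195, 229 and 164 FPKM in KO (log2 change 0.60, SE 0.13, adjusted p = 0.0327). Treml2, a surface receptor, read 17.1, 15.9 and 20.8 FPKM in HET and 28.6, 29.3 and 39.2 FPKM in KO (log2 change 0.81, SE 0.12, adjusted p = 0.00879). All 3 had every KO library above every HET library. St8sia6, a sialyltransferase, changed by 0.78 and Rasgrp2, a Rap activator, by 0.77. The blocked adjusted p of Ccr7 was 0.0566 (0.0170 to 1 over all alternatives). Ccr7 was not called without HET CD62Lhi replicates 1 or 2, HET CD62Llo replicates 2 or 3, KO CD62Lhi replicate 1 or KO CD62Llo replicates 1 or 2 (adjusted p 0.0516 to 0.112). Rasgrp2 was not called without HET CD62Llo replicate 2 or KO CD62Llo replicate 1 (adjusted p 0.0535 to 0.0545). Without KO CD62Llo replicate 3, 8 members were called higher, and with the replicate block 8 were higher and 1, Il7r, lower. Il7r, the IL-7 receptor of resting T cells, read 39.8, 39.0 and 57.4 FPKM in HET and 26.1, 22.9 and 40.8 FPKM in KO (log2 change -0.61, SE 0.25, adjusted p = 0.236), with a blocked adjusted p of 0.0283 (0.0283 to 1 over all alternatives) in the direction of a fall.

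Of the resting transcription factors, 6 of 17 tested rose (35.3%, against 1.36% of all genes) and 1 fell (median 0.25). Satb1, a chromatin organizer of naive T cells, read 25.9, 23.2 and 22.8 FPKM in HET and 44.4, 40.2 and 46.4 FPKM in KO (log2 change 0.84, SE 0.07, adjusted p = 0.00172). Klf2, which drives S1pr1, read 51.6, 51.1 and 44.9 FPKM in HET and 76.2, 71.7 and 94.1 FPKM in KO (log2 change 0.70, SE 0.10, adjusted p = 0.00784). Bach2, a repressor of effector genes, read 8.76, 8.92 and 9.22 FPKM in HET and 13.8, 12.4 and 15.2 FPKM in KO (log2 change 0.57, SE 0.07, adjusted p = 0.00386). No KO value reached down to the HET range in these genes. Lef1 (log2 change 0.49, adjusted p = 0.0165), Klf7 (log2 change 0.43, adjusted p = 0.0311) and Foxp1 (0.32) rose as well, and the member that fell was the clock repressor Nr1d1, which read 7.28, 6.95 and 7.31 FPKM in HET and 3.49, 3.81 and 3.19 FPKM in KO (log2 change -0.87, SE 0.08, adjusted p = 0.00172). Under the block, the adjusted p of Klf2 was 0.0585 (0.00356 to 1 over all alternatives), that of Klf7 0.0911 (0.0224 to 1 over all alternatives) and that of Foxp1 0.0620 (0.00871 to 1 over all alternatives). Lef1 was not called without HET CD62Llo replicates 2 or 3 or KO CD62Llo replicate 3 (adjusted p 0.0558 to 0.0667). Klf7 was not called without HET CD62Lhi replicates 1 or 2, HET CD62Llo replicates 2 or 3, KO CD62Lhi replicate 2 or KO CD62Llo replicates 1 or 3 (adjusted p 0.0523 to 0.111). Foxp1 was not called without HET CD62Llo replicates 1 or 2 or KO CD62Llo replicate 1 (adjusted p 0.0557 to 0.0855). The counts were 3 higher and 1 lower with the replicate block. Bcl2, the survival factor that resting T cells need, read 35.4, 36.9 and 37.3 FPKM in HET and 55.9, 50.5 and 65.2 FPKM in KO (log2 change 0.63, SE 0.08, adjusted p = 0.00512) and was called, with every KO library above every HET library.

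**Figure D3:**
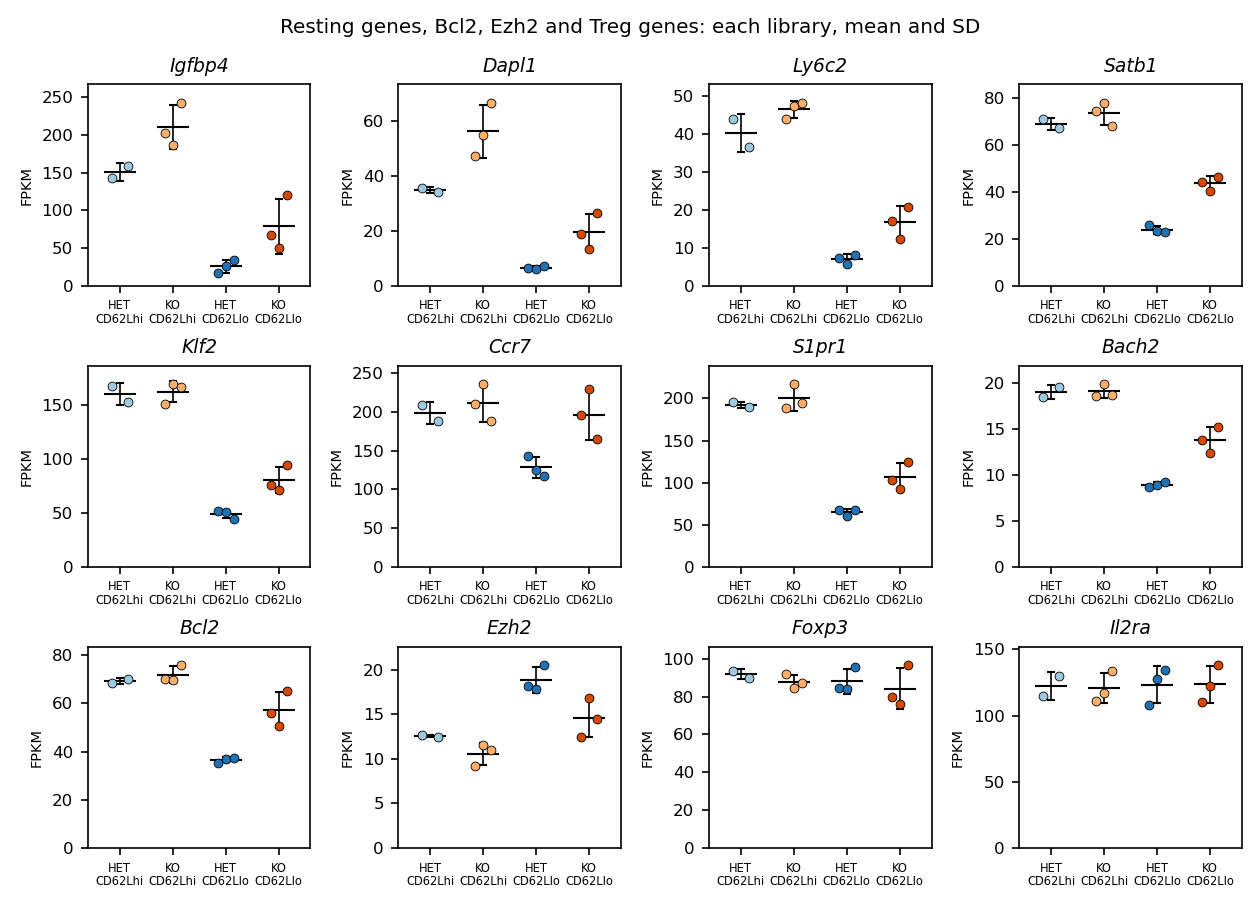
FPKM (y axis, linear, from 0) of resting genes, Bcl2, Ezh2, Foxp3 and Il2ra; each point is 1 library, bars are means and error bars SD (n = 3; HET CD62Lhi n = 2). KO CD62Llo points lie above HET CD62Llo points for Igfbp4 to Bcl2, overlap them for Foxp3 and Il2ra, and lie below them for Ezh2.

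Rnf130, a ubiquitin ligase, read 9.29, 9.21 and 9.54 FPKM in HET and 19.9, 21.0 and 18.2 FPKM in KO, or 2.11-fold higher (log2 change 0.997, SE 0.07, adjusted p = 0.000644), with the 3 values of each group close together. Ctsw, cathepsin W, read 48.8, 54.7 and 54.2 FPKM in HET and 86.2, 85.4 and 88.3 FPKM in KO (log2 change 0.71, SE 0.09, adjusted p = 0.00497). Prkd3, a protein kinase D, read 3.57, 4.27 and 4.27 FPKM in HET and 7.06, 6.24 and 9.22 FPKM in KO (log2 change 0.75, SE 0.11, adjusted p = 0.00879). These rises were seen in all 3 KO libraries. Sema4a (log2 change 0.82, adjusted p = 0.0212) and Cnn3 (log2 change 0.79, adjusted p = 0.0235) were called, with blocked adjusted p of 0.0526 (0.00691 to 1 over all alternatives) and 0.0837 (0.0141 to 1 over all alternatives). Sema4a was not called without HET CD62Llo replicates 2 or 3 or KO CD62Llo replicates 1 or 3 (adjusted p 0.0618 to 0.0891). Cnn3 was not called without HET CD62Llo replicates 1, 2 or 3 or KO CD62Llo replicate 1 (adjusted p 0.0506 to 0.0781). Ager changed by 0.71 (adjusted p = 0.0205). Ager was not called without HET CD62Llo replicates 2 or 3 or KO CD62Llo replicates 1 or 3 (adjusted p 0.0682 to 0.0853).

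**Figure D4:**
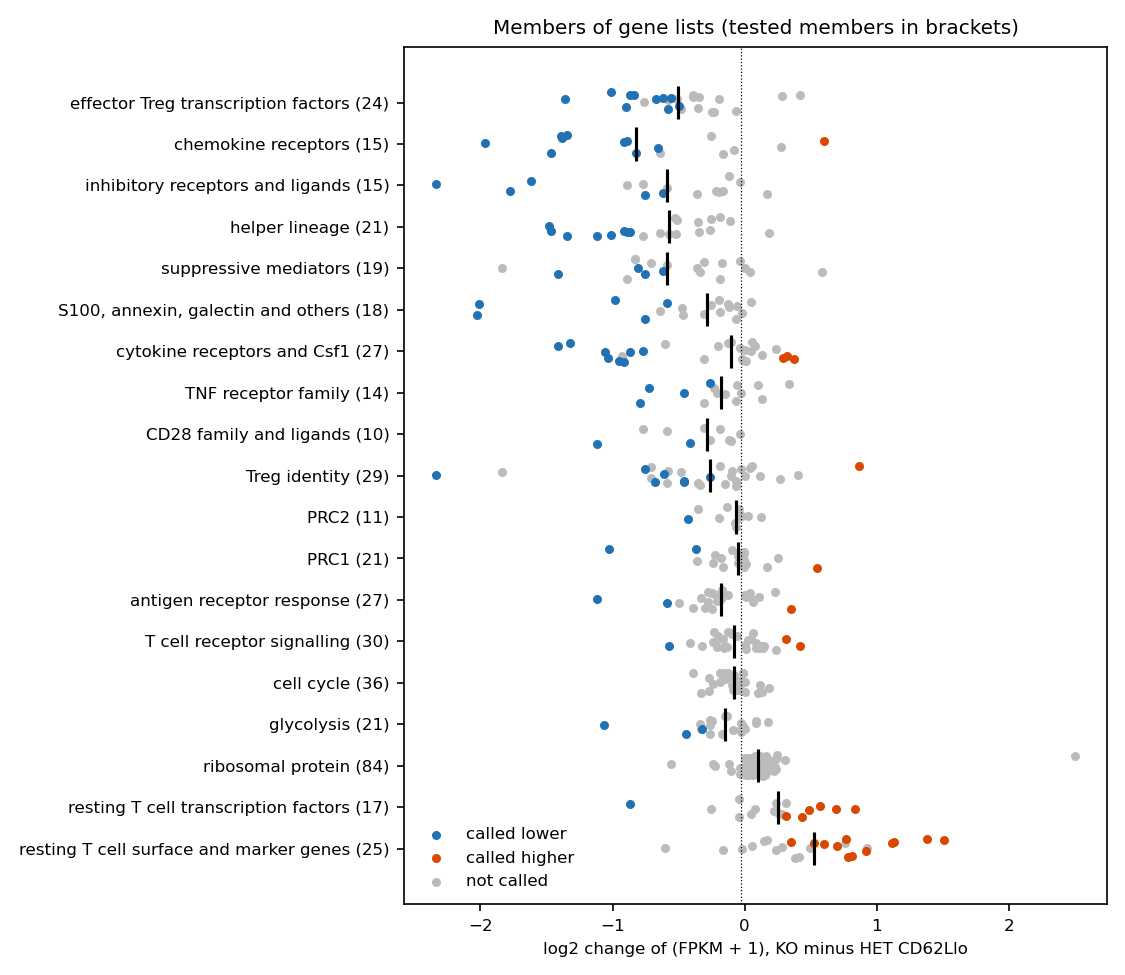
Log2 change of (FPKM + 1), KO minus HET CD62Llo (x axis), of each tested member of 19 gene lists; blue and orange points are members called lower and higher, grey points were not called, black bars are list medians and the dotted line is the median of all genes tested (-0.03). Medians run from -0.82 for chemokine receptors to 0.53 for resting surface and marker genes.

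The summed levels of the resting lists and of other cell types moved between libraries. Over the 25 resting surface and marker genes the sum was 1169 to 1216 FPKM in HET and 1550.4 to 1868 FPKM in KO, and over the 17 resting factors 1043 to 1143 and 1259 to 1284 FPKM. Of 14 B cell markers found, 0 of 14 were called (limma, with 3 at an unadjusted p under 0.05). Their sum was 98.8 to 159 FPKM in HET and 134 to 264 FPKM in KO, highest in KO replicate 3. Of the B cell markers 12 were above 0 and 2 below, with a median log2 change of 0.41 against -0.03 over all genes. Without KO CD62Llo replicate 3 the B cell median was -0.02. The 18 myeloid markers found summed to 153 to 256 FPKM in HET and 124 to 456 FPKM in KO, highest in KO replicate 2. Of the 9 myeloid markers tested 0 were called (0 at an unadjusted p under 0.05, limma). Among these 8 were above 0 and 1 below, with a median log2 change of 0.49. Without KO CD62Llo replicate 3 the myeloid median was 1.03, with 1 called higher. Lyz2 read 75.2, 50.8 and 40.1 FPKM in HET and 124, 219 and 25.6 FPKM in KO. The 16 stroma and endothelium markers, 14 of them under 1 FPKM in every CD62Llo library, summed to 40.5 to 43.5 FPKM in HET and 53.3 to 58.1 FPKM in KO, without overlap. Most of that sum was Pecam1 (CD31), an adhesion molecule of endothelium and some leukocytes, which was called higher and read 40.3, 39.2 and 36.8 FPKM in HET and 55.7, 51.5 and 50.6 FPKM in KO (log2 change 0.43, SE 0.07, adjusted p = 0.00878). The sums of plasma cell, of CD8 T and NK cell, and of red cell and platelet markers overlapped between the genotypes. The part of other cells, or of cells with more CD62L, in the changes above was not tested. Of the B cell and myeloid markers, 2 of 14 and 8 of 18 were under 1 FPKM in every CD62Llo library, and none was listed at 0 in all of them.

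**Figure D5:**
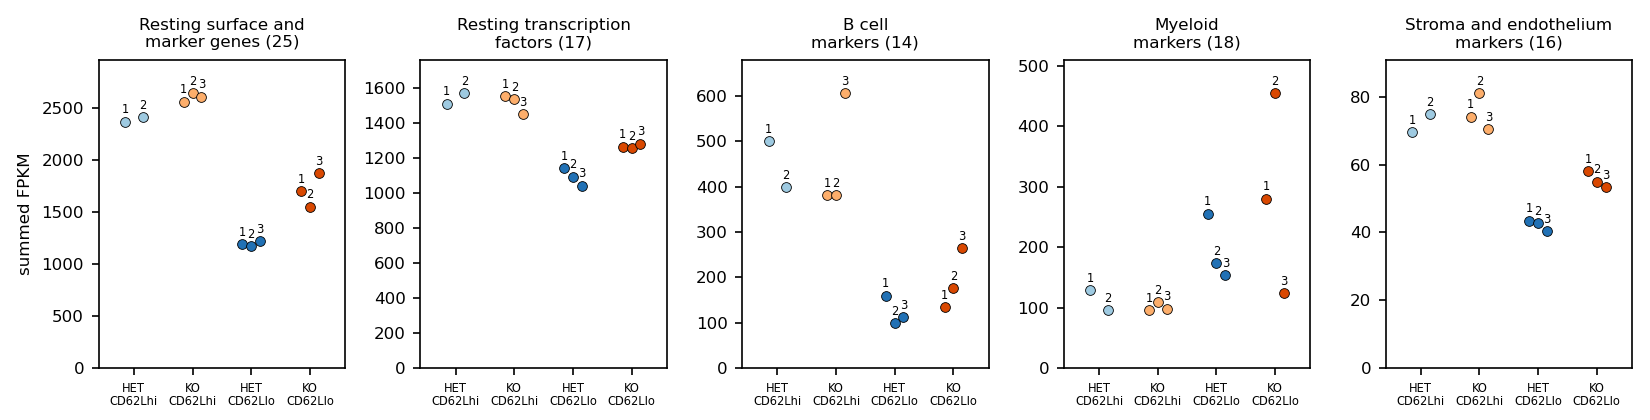
Summed FPKM (y axis, linear, from 0) over 25 resting surface and marker genes, 17 resting transcription factors, 14 B cell, 18 myeloid and 16 stroma and endothelium markers; each point is 1 library, numbered by its replicate. The resting sums of the 3 KO CD62Llo libraries lie between those of the HET CD62Llo and the CD62Lhi libraries, the B cell and myeloid sums overlap between the CD62Llo groups, and the stroma and endothelium sums do not.

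Of 11 PRC2 genes, 1 was lower (9.09%, against 3.25% of all genes): Aebp2, an accessory subunit, which read 93.0, 106 and 97.2 FPKM in HET and 70.8, 72.2 and 75.7 FPKM in KO (log2 change -0.43, SE 0.06, adjusted p = 0.00811). Of 21 PRC1 genes, 2 were lower (9.52%) and 1 higher (4.76%, against 1.36% of all genes). Pcgf2, a Polycomb ring finger protein, read 3.28, 2.75 and 2.55 FPKM in HET and 0.825, 0.913 and 0.920 FPKM in KO (log2 change -1.03, SE 0.10, adjusted p = 0.00206). Kdm2b (log2 change -0.37, adjusted p = 0.0163) was lower and Scmh1 (log2 change 0.55, adjusted p = 0.0223) higher. Kdm2b was not called without HET CD62Llo replicates 2 or 3 or KO CD62Llo replicates 1 or 3 (adjusted p 0.0517 to 0.0685). Scmh1 was not called without HET CD62Llo replicates 2 or 3 or KO CD62Llo replicates 1 or 2 (adjusted p 0.0536 to 0.0838). Of 49 developmental regulators that Polycomb classically silences, 48 were under 1 FPKM in every CD62Llo library, 22 were listed at 0 in all of them, and the 1 that was tested, Hoxb4, read 1.20, 0.676 and 0.231 FPKM in HET and 1.15, 1.36 and 0.741 FPKM in KO (log2 change 0.32, adjusted p = 0.423). Cdkn2a, a cell cycle inhibitor that PRC2 silences, was not tested and read 0.237, 0.289 and 0.194 FPKM in HET and 0.318, 0.421 and 0.0371 FPKM in KO. Kdm6b, a demethylase that removes the PRC2 mark, was at 22.3 ± 1.29 FPKM in HET and 20.6 ± 0.665 FPKM in KO as mean ± SD of n = 3 each (log2 change -0.11, adjusted p = 0.457).

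Against the 4.6% of all genes called in either direction, none of 36 cell cycle genes, 84 ribosomal protein genes, 23 cholesterol synthesis genes, 21 JAK, STAT, SOCS and PIM genes, 9 RGS genes or 8 GIMAP genes passed the limma test. At an unadjusted p under 0.05 there were 2 cell cycle, 14 ribosomal protein, 2 cholesterol synthesis, 6 JAK, STAT, SOCS and PIM, 0 RGS and 1 GIMAP genes. The share of all genes at that unadjusted level is not given here. Of the ribosomal protein genes, 76 were above 0 and 8 below (median 0.10, against -0.03 over all genes). After quantile normalization their median was -0.005, against 0.007 over all genes. Of the cell cycle genes, 31 were below 0 and 5 above, where 58.4% of all genes were below 0. Of 21 glycolysis genes 3 were lower (14.3%, against 3.25% of all genes; median -0.15), and without KO CD62Llo replicate 3 the count was 1. The lowered genes were led by Aldoc, an aldolase, which read 2.76, 3.87 and 3.20 FPKM in HET and 0.821, 0.964 and 1.34 FPKM in KO (log2 change -1.07, SE 0.16, adjusted p = 0.00784). Of 34 interferon-stimulated genes 2 were higher (5.88%, against 1.36% of all genes). They were Oasl1 (log2 change 0.64, adjusted p = 0.0355) and Usp18 (log2 change 0.61, adjusted p = 0.0124). The blocked adjusted p of Usp18 was 0.0545 (0.00627 to 1 over all alternatives). Oasl1 was not called without HET CD62Lhi replicates 1 or 2, HET CD62Llo replicates 1, 2 or 3, KO CD62Lhi replicate 2 or KO CD62Llo replicates 1 or 2 (adjusted p 0.0573 to 0.134). Of 27 antigen receptor response genes 2 were lower (7.41%) and 1 higher (3.7%), and of 40 other histone and DNA modifiers 2 were lower (5%). Lower and higher calls were 4 (18.2%) and 0 among 22 integrin and adhesion genes. They were 3 (25%) and 1 (8.33%) among 12 cytotoxic and killer lectin genes and 4 (12.9%) and 1 (3.23%) among 31 apoptosis and p53 genes. Among 18 TGF-beta and Smad genes they were 2 and 2 (11.1% each). Among 30 T cell receptor signalling genes they were 1 (3.33%) and 2 (6.67%). Over all genes tested, 3.25% were lower and 1.36% higher.

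Some called genes had a called neighbour of the same direction. Of 371 lowered genes, 71 (19.1%) lay within 100 kb of another lowered gene, in 33 runs, and 35 of 153 raised genes with a locus (22.9%) lay in 17 runs. The runs included Il1r2 with Il1r1 and Il18r1 with Il18rap on chromosome 1 and Igfbp4 with Ccr7 on chromosome 11. These counts are a description and were not tested against gene spacing.

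In the CD62Lhi fraction, KO against HET gave 0 called genes (limma), with 328 at an unadjusted p under 0.05. These libraries are not those of the CD62Llo comparison, but they entered the same fit and its shared estimate of the spread. Whether both fractions came from the same animals is not known here, so the shares below are not shown to be independent. Of the 371 genes lower in CD62Llo KO, 314 (84.6%) were also below 0 there, against 58.3% of all genes tested, and of the 155 higher genes 121 (78.1%) were above 0, against 41.6%. The changes in CD62Lhi were small, with medians of -0.10 and 0.06 on the log2 scale. S100a4 read 27.2 and 17.2 FPKM in HET and 5.18, 6.42 and 8.55 FPKM in KO in CD62Lhi, Igfbp4 143 and 159 FPKM in HET and 203, 186 and 243 FPKM in KO and Satb1 70.8 and 67.3 FPKM in HET and 74.4, 77.9 and 68.0 FPKM in KO.

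The test of whether the KO change differed between the fractions called 1 gene of 11431 (0.00875%), Mir1905, and 868 genes had an unadjusted p under 0.05. No difference between the fractions was therefore shown for the other genes above. The microRNA Mir1905 was listed at 0 in the 3 HET CD62Llo libraries, and read 230, 209 and 143 FPKM in KO CD62Llo, 60.9 and 152 FPKM in HET CD62Lhi and 195, 120 and 128 FPKM in KO CD62Lhi. It lies on the minus strand inside a coding exon of Mex3a, which is on the plus strand, and the precursor is 82 bases long. The authors' intervals, whose limit is given above, reached down to 0 for Mir1905 in the 3 KO CD62Llo libraries. Since no source used here says that counting used strand, reads of Mir1905 and Mex3a cannot be told apart. The mature RNA, from RefSeq build GRCm38.p6, is shown because it is the 1 gene called, with its seed (bases 2 to 8) in capitals.
mmu-miR-1905, chr3:88536311-88536332, minus strand: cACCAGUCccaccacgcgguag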

How the data were processed

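Poly(A) RNA of sorted Tregs was sequenced. The authors computed the FPKM values on mm10, and the submitters' processing notes name Cufflinks 2.1.1, TopHat, FastQC and CASAVA 1.8.2. Beside each FPKM the authors deposited its lower and upper interval bounds. Their settings are not stated in the labels. The files list 23846 entries under 23352 symbols, and where a symbol had several entries (250 symbols) these were added up. FPKM are not counts, so no count model was fitted.

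Replicate 3 of HET CD62Lhi took no part, since the submitters' own label excludes it over low read counts. All 11 remaining libraries entered 1 limma fit (limma 3.58.1, R 4.3.3) of log2(FPKM + 1) with 4 group means and a trended empirical Bayes variance. Tests were two-sided, over genes at 1 FPKM or more in at least 2 libraries, with Benjamini-Hochberg adjustment at 0.05 over all of them. Log2 changes are of FPKM + 1, so for weakly expressed genes they are smaller than the true change. The fit was tried on 5 simulated sets with 200 changed genes each. It recovered 63.9%, 94.0% and 98.2% of log2 changes of 0.5, 1 and 2, with 7.8 false calls per set. Noise was drawn independently for each library, so a pairing of libraries was not simulated. Cep250 has a failed estimate in 2 of the CD62Llo libraries.

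Both genotypes carry replicate numbers 1 to 3, and no label ties a number to a litter or a day. Across genes, the deviations of HET and KO CD62Llo libraries with equal numbers correlated at r of 0.165, 0.153 and 0.148, and no library correlated better with another number. The numbers may therefore pair the libraries, but this rests on these weak correlations alone. The main fit and its calls do not use the pairing. The fit with replicate number as a block is given where it changes a call.

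The groups, gene lists and naming rule were chosen with earlier results of these data known. Some genes belong to several lists, so the counts of different lists are not independent. By the rule, the text names the 15 largest falls and 15 largest rises among called genes whose groups do not overlap and whose higher mean is at least 5 FPKM (predicted genes, small RNAs, receptor segments and pseudogenes excepted). From each list it also takes at most 4 called genes, and a fixed set with Ezh2 and Foxp3 is always given. Some genes that the rule takes, and an added fit that rests on one of them, are not reported here. These genes were chosen after their values were seen: Ezh1, Eed, Suz12, S100a1, S100a10, Lag3, Ccr1, Ccr6, Ccr8, Ccrl2, Cxcr5, Bhlhe40, Ahr, Id2, Batf, Runx2, Runx3, Maf, Irf4, Tbx21, Bcl6, Il18r1, Il1rl1, Il4ra, Ifngr2, Il17ra, Gzmb, Ebi3, Nt5e, Capg, Nrp1, Lef1, Klf7, Foxp1 and Lyz2. The 13 mitochondrially encoded genes listed were not matched by symbol. Alternatives were the pseudocount, the filter on low values, the scaling, the variance model, the libraries fitted, the replicate block and each library left out.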

Additional observations from a re-analysis of the deposited data

Results flagged for a closer look

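The KO minus HET change of Mir1905 differed between the CD62Llo and CD62Lhi fractions in the test of the difference itself (limma, adjusted p = 0.000906). Its per-library levels are given with that test above: it was listed at 0 in the 3 HET CD62Llo libraries and was above 0 in the other 8 libraries fitted.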

How the results depend on the processing

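All 371 lowered and 155 raised genes kept their direction in every alternative that tested them. The filter on mean FPKM tested 345 and 151 of them. For most alternatives this was fixed in advance, because the groups of these genes do not overlap. Only another scaling, or the largest entry of a symbol in place of the sum, could have reversed a direction. Leaving out 1 library gave 131 to 466 lower genes, 44 to 173 higher genes and 1 to 5 genes in the test of the difference between fractions. The CD62Llo libraries alone gave 84 lower and 25 higher genes, with the replicate block 38 and 10, and the replicate block over 11 libraries gave 242 and 101. All 12 libraries gave 3, 0 and, between fractions, 0. Quantile normalization gave 237 higher genes. For the difference between fractions, alternatives chosen after seeing the data gave 10 genes with a pseudocount of 5, 4 without a filter, 7 with array weights and 3 without a trend, against 1. The cause of these changes was not tested. A fit without the libraries at the extremes of a gene's level was also tried and is not reported, because it selects libraries by a measured value. Depth in reads is unknown, so its limits could not be computed.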
